A study of Mus musculus with 5 samples.

Results

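Integrins and cadherins are the receptors through which a cell holds on to its matrix and to its neighbours. The mouse protein-coding genes of these families were taken from the count table by symbol, Itga or Itgb for integrin chains and Cdh followed by a number for cadherins, and the rule used no measured value. Cdh5, a defining gene of endothelium, and genes that only share a prefix with the integrins were left out by the rule. This gave 43 genes of the 17087 protein-coding genes counted, 27 integrin chains and 16 cadherins.

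The libraries were bulk RNA-seq of Cxcl12-GFPhigh tdTomato+ cells, the reticular stromal cells of bone marrow, sorted from mouse femurs at postnatal day 21. The question of the comparison was how marrow stromal cells differ according to whether they descend from the fetal perichondrium or from fetal chondrocytes. In one group the tdTomato mark was set at E12.5 by a tamoxifen-activated Cre that follows Dlx5, a perichondrial gene, in Cxcl12(GFP/+); Dlx5(CreER/+); R26R(tdTomato/+) mice, and gave 3 libraries, called Dlx5CE-E12.5. In the other it was set on the same day by a Cre that follows Fgfr3, a chondrocyte gene, in Cxcl12(GFP/+); Fgfr3-iCreER; R26R(tdTomato/+) mice, and gave 2 libraries, called Fgfr3CE-E12.5 and numbered 2 and 3 in the labels. Both groups shared the Cxcl12-GFP allele, the tdTomato reporter, tamoxifen, and removal of the growth plates before marrow cells were released. Each library came from marrow of littermates pooled by genotype, so the p-values measure the spread between pools. The mark is set in cells where the driver is active after the pulse, and their descendants keep it. The paper gives as a limit that recombination may go on for several days after tamoxifen. Per the study's methods the groups were also sequenced on different instruments with different read lengths, so a difference between lineages and a difference between sequencing runs cannot be told apart.

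An integrin is a pair of an alpha and a beta chain, and the pair decides the ligand: some pairs bind collagens, some bind laminins, some bind the RGD peptide of fibronectin, vitronectin and osteopontin, and a further group sits on blood cells. Cadherins bind the same or a similar cadherin on the neighbouring cell in the presence of calcium and hold the actin skeleton through catenins. In marrow, these receptors are known for anchoring stroma and bone-lining cells to matrix and for keeping blood cell precursors beside stromal cells.

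Total counts were 22035650 to 32563758 in the Dlx5CE-E12.5 libraries and 56355203 and 58166285 in the Fgfr3CE-E12.5 libraries, so that 3 counts amounted to between 0.0473 and 0.141 CPM (counts scaled to a common library total with TMM factors). Reticular stroma markers such as Cxcl12 and Lepr summed to 28650 to 29790 CPM in Dlx5CE-E12.5 cells and to 11430 and 7595 CPM in Fgfr3CE-E12.5 cells, so the labelled cell type was present in every library. Markers of other cells were present too. The methods describe the sort for these libraries by GFP and tdTomato alone. Pan-leukocyte markers summed to 329.5 to 420.0 CPM against 1120 and 2370 CPM, neutrophil markers to 2399 to 3001 CPM against 6693 and 16470 CPM, and chondrocyte markers to 120.2 to 131.1 CPM against 2896 and 410.2 CPM. In Dlx5CE-E12.5 cells most of the chondrocyte sum was Sox9, at 116.6 to 124.1 CPM. Sox9 went the other way, at 96.8 and 53.7 CPM in Fgfr3CE-E12.5 cells. There most of the sum was Col2a1, at 2598 and 342.8 CPM against 0.756 to 7.01 CPM in Dlx5CE-E12.5 cells. The 2 Fgfr3CE-E12.5 libraries therefore differed from each other, replicate 3 holding 2.12 times the pan-leukocyte sum and 0.142 times the chondrocyte sum of replicate 2. In bulk RNA, fewer cells of a type and less RNA per cell cannot be told apart, and this holds for every level below.

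Of the 43 genes, 20 reached 10 CPM in at least 2 libraries and entered the main test together with the rest of the table. Of these 20, 10 were called higher in Fgfr3CE-E12.5 cells (background, 16.4% of all 10088 genes tested) and 3 were called higher in Dlx5CE-E12.5 cells (background, 13.1%). A gene was called when edgeR's quasi-likelihood test gave a Benjamini-Hochberg adjusted p under 0.05 and the log2 fold change, Fgfr3CE-E12.5 over Dlx5CE-E12.5, was above 1 in size. On the log2 scale the 20 genes had a median difference of 1.21, and all genes tested 0.01. In 5 of the 20 the threshold was reached only by libraries of the group where the gene was high (Itgb2l, Itgb7, Cdh15 and Cdh6 in Fgfr3CE-E12.5, Cdh13 in Dlx5CE-E12.5), so these were bound to differ, and the counts describe only the genes that passed. Every Fgfr3CE-E12.5 library lay above every Dlx5CE-E12.5 library for 11 of the 20, which 34.8% of all genes tested also did, the reverse held for 3, against 34.1%, and the groups overlapped for 6. When 10 CPM was asked of at least 3 libraries, 15 members remained in the test and 6 were called higher in Fgfr3CE-E12.5 cells and 2 in Dlx5CE-E12.5 cells. Without Fgfr3CE-E12.5 replicate 2 the count higher in Fgfr3CE-E12.5 cells was 6, and without replicate 3 it was 5, in each case of the 16 members that still passed. The count higher in Dlx5CE-E12.5 cells was 1 without Dlx5CE-E12.5 replicate 2, where Cdh13 missed the filter and Itga1 missed the fold threshold. The share of all genes called under that stricter filter or without a library is not given here. A change of these counts therefore cannot be told from a change over all genes.

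**Figure D1:**
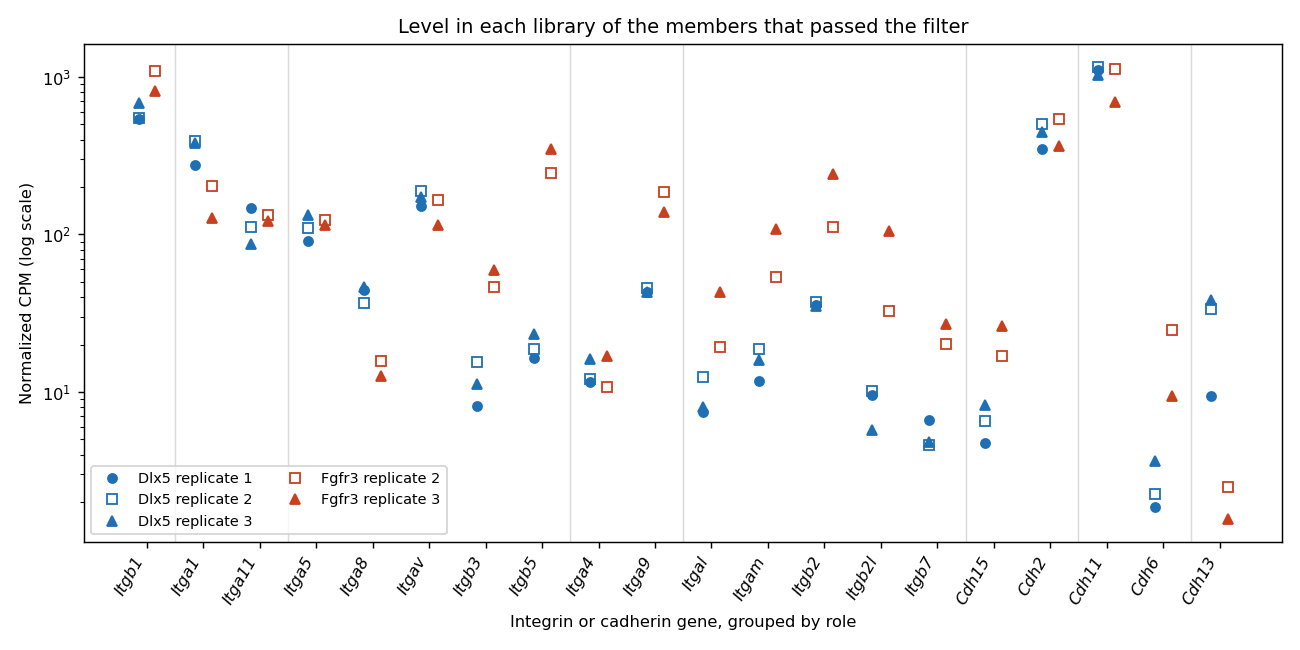
Normalized CPM (log axis) of the 20 integrin and cadherin genes that passed the filter, with one point per library, Dlx5CE-E12.5 in blue and Fgfr3CE-E12.5 in red; thin lines separate the roles. Itgb5 stands at 16.5 to 23.4 CPM in blue and 247 and 346 CPM in red, while the points of Cdh11 and Cdh2 lie together.

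Itgb1, the beta chain that most matrix-binding alpha chains share, was the most abundant integrin. It stood at 536, 549.6 and 679 CPM in the Dlx5CE-E12.5 libraries and at 1082 and 817 CPM in the Fgfr3CE-E12.5 libraries. The groups did not overlap, yet the difference was below the fold threshold (log2 fold change 0.69, SE 0.19, adjusted p = 0.0221 by edgeR's quasi-likelihood test). It was the 1 gene of the 20 that passed by the adjusted p and not by its fold; 48.4% of all genes tested passed by the adjusted p alone. Per kilobase of exon, the scale on which genes can be compared, its mean level was 144 in Dlx5CE-E12.5 cells and 233 in Fgfr3CE-E12.5 cells, the highest of all 43 genes in each group.

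Among the collagen-binding alpha chains, Itga1 was lower in Fgfr3CE-E12.5 cells and Itga11 overlapped between the groups. Itga1, a receptor for basement membrane and fibrillar collagens, was at 274, 389 and 383 CPM in Dlx5CE-E12.5 cells and at 204 and 126 CPM in Fgfr3CE-E12.5 cells. Its log2 fold change was -1.08 (SE 0.26, adjusted p = 0.013 by edgeR's quasi-likelihood test), close to the fold threshold. The call was lost without Fgfr3CE-E12.5 replicate 3 (-0.71, adjusted p = 0.0663 in the same test) and when a trend of counts on transcript length was removed (-0.30, adjusted p = 0.206 in the same test). Itga11, the fibrillar collagen receptor typical of mesenchymal cells, was at 148, 112 and 87.1 CPM against 132 and 122 CPM. Neither lineage stood above the other for Itga11 (log2 fold change 0.13, SE 0.22). Itga10, best known from cartilage, was at 2.18 ± 0.592 CPM (SD, n = 3) and 2.34 ± 0.121 CPM (SD, n = 2), and Itga2, the collagen receptor of platelets and epithelia, had 9 to 12 counts in Dlx5CE-E12.5 cells and 111 and 58 counts in Fgfr3CE-E12.5 cells, too few to enter either test.

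The RGD-binding chains held the largest difference of the family, in Itgb5, and an opposite one in Itga8. Itgb5, which pairs with the alpha chain Itgav to bind vitronectin, was at 16.5, 18.7 and 23.4 CPM in Dlx5CE-E12.5 cells and at 247 and 346 CPM in Fgfr3CE-E12.5 cells. Its log2 fold change was 3.92 (SE 0.22, adjusted p = 4.3e-05 by edgeR's quasi-likelihood test), and it lay between 3.70 and 4.22 under the alternatives tried. Itgb3, the other beta chain of the vitronectin receptors and an abundant protein of osteoclasts and platelets, was at 8.15, 15.4 and 11.2 CPM against 46.3 and 59.4 CPM. It was called higher in Fgfr3CE-E12.5 cells with a log2 fold change of 2.19 (SE 0.28, adjusted p = 0.000941 by edgeR's quasi-likelihood test).

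The alpha chain of both pairs did not follow them. Itgav was at 150.4, 189 and 173 CPM in Dlx5CE-E12.5 cells and at 165 and 114 CPM in Fgfr3CE-E12.5 cells, and the groups overlapped (log2 fold change -0.29, SE 0.20). The other two beta chains that Itgav pairs with in activating latent TGF-beta were near the detection floor, Itgb6 at 1 to 11 counts in any library and Itgb8 at 0 to 50 counts. Itga5, the fibronectin receptor, overlapped as well, at 90.95, 110.2 and 133 CPM against 123 and 114 CPM (log2 fold change 0.09, SE 0.18). Itga8, a receptor for nephronectin and other RGD proteins, was at 44.1, 36.7 and 46.1 CPM in Dlx5CE-E12.5 cells and at 15.7 and 12.7 CPM in Fgfr3CE-E12.5 cells. All Dlx5CE-E12.5 libraries exceeded both others, with a log2 fold change of -1.58 (SE 0.19, adjusted p = 0.000804 by edgeR's quasi-likelihood test).

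Osteoclasts and platelets are cells known for Itgb3, and their markers were read beside it. Of the 6 osteoclast markers 4 were tested at the lower filter described below. Acp5, Ocstamp and Dcstamp were called higher in Fgfr3CE-E12.5 cells (background, 16.6%). Ocstamp and Dcstamp were at 0 in every Dlx5CE-E12.5 library, so these were bound to differ. Calcr, also at 0 there, had 18 and 0 counts in Fgfr3CE-E12.5 cells and was not tested. The list summed to 188.4 to 195.0 CPM in Dlx5CE-E12.5 cells and to 237 and 239.6 CPM in Fgfr3CE-E12.5 cells. Most of it was Ctsk, which was not called, at 175.3 to 179.0 CPM against 173.5 and 168.6 CPM. Of the 6 megakaryocyte and platelet markers 4 were tested at that filter and 2 were called higher, and the list summed to 4.85 to 6.66 CPM against 54.0 and 10.9 CPM. Itga2b, the alpha chain that pairs with Itgb3 on platelets, was at 1.86, 3.34 and 2.07 CPM against 17.2 and 6.69 CPM, so both that marker list and Itga2b were higher in Fgfr3CE-E12.5 replicate 2 than in replicate 3, at 0.201 and 0.389 times, whereas Itgb3 was 1.28 times higher in replicate 3. The part of these cells in the levels of Itgb3 and Itga2b was not tested.

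Of the pair of related alpha chains Itga4 and Itga9, which bind VCAM1, fibronectin variants, tenascin and osteopontin, only Itga9 was called. Itga9 was at 43.0, 45.9 and 43.4 CPM in Dlx5CE-E12.5 cells and at 185 and 139.7 CPM in Fgfr3CE-E12.5 cells. The difference was 1.88 on the log2 scale (SE 0.16, adjusted p = 0.000172 by edgeR's quasi-likelihood test). Itga4, the chain by which blood cell precursors hold on to VCAM1, was at 11.6, 12.1 and 16.2 CPM against 10.8 and 16.9 CPM, with a log2 fold change of 0.06 (SE 0.28).

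Of the integrins of blood cells, 5 passed the filter and these 5 were called higher in Fgfr3CE-E12.5 cells, where 16.4% of all genes tested were. For 2 of the 5, Itgb2l and Itgb7, 10 CPM was reached only in Fgfr3CE-E12.5 libraries, so these were bound to differ. Itgb2, the beta chain of leukocyte integrins, was at 35.6, 37.0 and 35.2 CPM in Dlx5CE-E12.5 cells and at 111 and 242 CPM in Fgfr3CE-E12.5 cells (log2 fold change 2.30, SE 0.30, adjusted p = 0.00103 by edgeR's quasi-likelihood test). Itgam, its alpha partner on neutrophils and macrophages, was at 11.8, 18.8 and 16.1 CPM against 53.3 and 107.8 CPM (2.37, SE 0.33). Itgal, its alpha partner on lymphocytes and most other leukocytes, was at 7.503, 12.4 and 7.99 CPM against 19.2 and 42.9 CPM (1.74, SE 0.38).

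The other two were Itgb2l, a beta chain close to Itgb2 in sequence, and Itgb7, the partner of Itga4 on lymphocytes and mast cells. Itgb2l was at 9.56, 10.1 and 5.77 CPM against 32.7 and 105.4 CPM (log2 fold change 3.03, SE 0.49), and Itgb7 at 6.62, 4.62 and 4.81 CPM against 20.1 and 27.1 CPM (2.14, SE 0.26). The 5 genes were higher in Fgfr3CE-E12.5 replicate 3 than in replicate 2 by 2.17, 2.02, 2.24, 3.22 and 1.35 times in the order given, against 48.5% of all genes tested that were higher in replicate 3. Without replicate 3 the log2 fold change was 1.69 for Itgb2 and 1.84 for Itgam, and Itgal lost its call (1.11, adjusted p = 0.0511 by edgeR's quasi-likelihood test), while Itgb2l and Itgb7 missed the filter whenever either Fgfr3CE-E12.5 library was left out.

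Pan-leukocyte and neutrophil markers moved in the same direction as these integrins, and markers of other blood cells did so in part. All 8 pan-leukocyte markers and all 7 neutrophil markers were called higher in Fgfr3CE-E12.5 cells, and all 15 were higher in replicate 3 than in replicate 2. Of the 15, Cd48 reached 10 CPM only in Fgfr3CE-E12.5 libraries, so it was bound to differ. At the main filter 4 of 5 macrophage and 2 of 4 B lineage markers were called higher in Fgfr3CE-E12.5 cells (background, 16.4%). The 1 T and NK marker tested was called too, and 0 of 2 mast and basophil markers were. Cd68 and Igll1 also reached 10 CPM only in Fgfr3CE-E12.5 libraries, so these were bound to differ. The macrophage marker Mrc1, below that filter, went the other way, at 7.28 to 12.15 CPM against 6.03 and 3.42 CPM. Per 100 CPM of the pan-leukocyte sum, a ratio added after the data had been seen, Itgb2 was at 8.47, 9.93 and 10.7 CPM in Dlx5CE-E12.5 cells and at 9.92 and 10.2 CPM in Fgfr3CE-E12.5 cells. Itgam was at 2.81 to 5.05 against 4.55 and 4.76 CPM on that scale, and Itgal at 1.79 to 3.32 against 1.71 and 1.81 CPM. For these 3 genes the ratio overlapped between the lineages although the CPM did not. Over the 13 genes of the families called higher in Fgfr3CE-E12.5 cells in either fit, the ratio overlapped for 11, and for the other two, Itgb2l and Itgb5, it was higher in both Fgfr3CE-E12.5 libraries. Itgb2l was at 1.75 to 2.70 against 2.92 and 4.45 CPM per 100 CPM of that sum, and Itgb5 at 3.94 to 7.09 against 22.1 and 14.6 CPM. Of those that overlapped, Itga9 was at 10.2 to 13.2 against 16.5 and 5.89 CPM on that scale, Itgb3 at 1.94 to 4.14 against 4.14 and 2.50 CPM, and Itgb7 at 1.24 to 1.58 against 1.79 and 1.15 CPM. Cdh15 was at 1.13 to 2.51 against 1.52 and 1.10 CPM, and Itga6 at 0.272 to 0.507 against 0.504 and 0.468 CPM. The other overlapping genes were Itga2b, Cdh6 and Cdh23. That sum was itself 4.66 times higher on average in Fgfr3CE-E12.5 cells, so the ratio falls for a gene raised less than that. Cdh11, whose CPM overlapped between the lineages, was at 264.1 to 312.8 against 99.45 and 29.33 CPM on that scale. An overlap on it therefore does not tell which cells expressed a gene, and the share of all genes that overlap was not computed. The part of leukocytes in these differences was not tested.

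**Figure D2:**
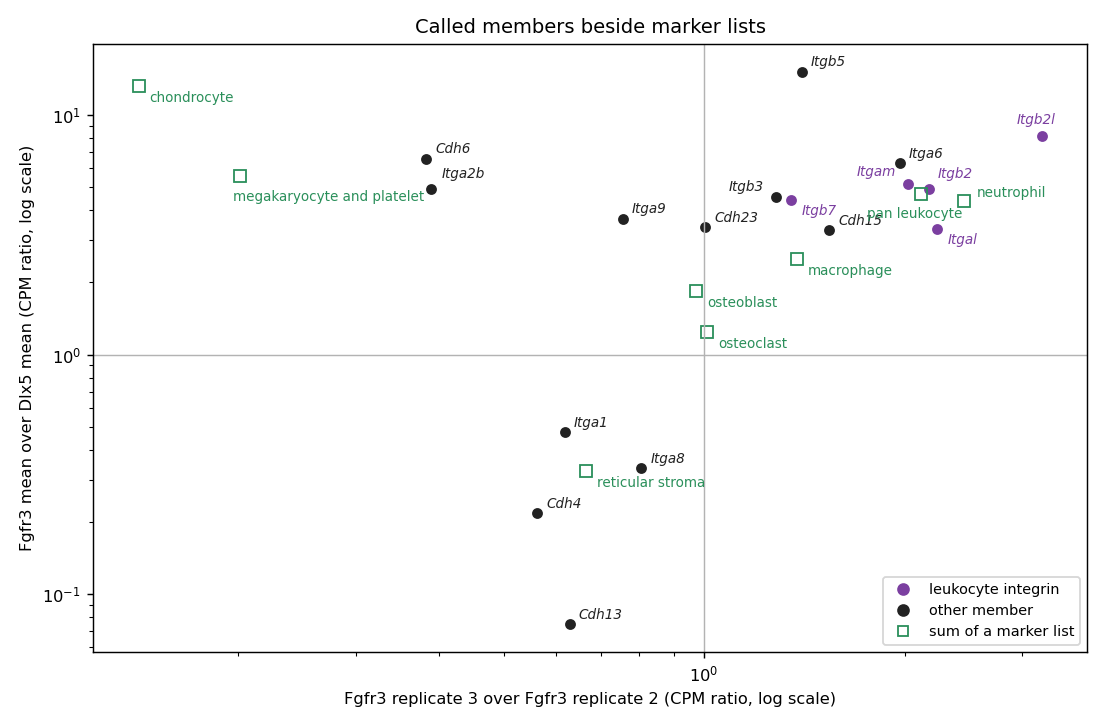
Mean CPM in Fgfr3CE-E12.5 over mean CPM in Dlx5CE-E12.5 (vertical log axis) against CPM in Fgfr3CE-E12.5 replicate 3 over replicate 2 (horizontal log axis) for the called integrins and cadherins (dots, leukocyte integrins in purple) and for sums of marker lists (open squares); no test is drawn. Itgb2, Itgam and Itgal lie near the pan-leukocyte sum at 2.12 and 4.66, whereas Itga9, Itga2b and Cdh6 lie on the other side of the vertical line at 1. The line does not separate leukocyte integrins from the rest. Itga6, Cdh15, Itgb5, Itgb3 and Cdh23 lie on their side of it, at 1.97, 1.54, 1.40, 1.28 and 1.004.

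The promoter sequence of 4 of the called chains is shown because 3 of them are leukocyte chains and Itgb5 had the largest difference. The genes and the motifs were picked after the values had been seen. Bases run 5′ to 3′ on the strand of the gene, end at the base before the RefSeq start, and come from RefSeq on GRCm38.p6, where 29 of the 43 genes were matched by symbol. Capitals mark GAGGAA, the core of sites bound by the leukocyte factor PU.1, and GGGCGG, the GC box, each on either strand. The 150 bases of Itgam are chr7:128062490-128062639 on the plus strand, those of Itgb2l chr16:96443615-96443764 on the minus strand, those of Itgb7 chr15:102231936-102232085 on the minus strand, and those of Itgb5 chr16:33829515-33829664 on the plus strand.
Itgam: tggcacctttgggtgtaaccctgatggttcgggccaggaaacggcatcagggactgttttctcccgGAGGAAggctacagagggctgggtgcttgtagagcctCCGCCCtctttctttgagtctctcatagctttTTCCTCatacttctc
Itgb2l: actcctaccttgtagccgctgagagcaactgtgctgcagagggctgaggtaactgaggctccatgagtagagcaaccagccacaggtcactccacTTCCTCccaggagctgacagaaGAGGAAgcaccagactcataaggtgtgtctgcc
Itgb7: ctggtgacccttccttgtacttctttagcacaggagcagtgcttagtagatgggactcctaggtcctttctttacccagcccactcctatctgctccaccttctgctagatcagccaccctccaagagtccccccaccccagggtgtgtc
Itgb5: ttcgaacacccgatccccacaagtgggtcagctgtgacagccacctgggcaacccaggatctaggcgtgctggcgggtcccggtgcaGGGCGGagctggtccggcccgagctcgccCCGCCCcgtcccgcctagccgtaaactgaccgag

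Over the 250 bases upstream that were searched, GAGGAA occurred 2 times in Itgam, starting 84 and 15 bases before the start, and 2 times in Itgb2l, starting 55 and 33 bases before it. It was not among the letters of the Itgb7 and Itgb5 windows. GGGCGG occurred 3 times in Itgb5, at 199, 63 and 34 bases before the start, and 1 time in Itgam, at 47 bases. TATAAA, the TATA box, was searched as well and was in none of the 4 windows. Of all 32851 RefSeq promoters of the same length, 23.3% held GAGGAA, 32.7% held GGGCGG and 12.4% held TATAAA on either strand, so these matches describe the sequences and name no bound site.

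The remaining chains of blood cells were near the floor. Itgad had 22 to 31 counts in Dlx5CE-E12.5 cells and 137 and 57 in Fgfr3CE-E12.5 cells and was not called at the lower filter described next. Itgax, the chain of dendritic cells, had 0 to 5 counts against 29 and 114, and Itgae, the chain that holds lymphocytes to E-cadherin, 0 to 3 counts against 6 and 20.

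A further 10 genes of the families reached 1 but not 10 CPM in at least 2 libraries and were read from a fit of all 13225 genes that passed this lower filter. Of the 10, 3 were called higher in Fgfr3CE-E12.5 cells, where 16.6% of all genes tested were, and 1 higher in Dlx5CE-E12.5 cells, where 12.9% were. That last gene, Cdh4, reached 1 CPM only in Dlx5CE-E12.5 libraries, so it was bound to differ. Fgfr3CE-E12.5 replicate 3 stood above replicate 2 for 7 of the 10, as it did for 49.2% of all genes at this filter. Itga6, a laminin receptor of basal epithelium, stem cells and platelets, was at 1.14, 1.18 and 1.67 CPM against 5.64 and 11.1 CPM (log2 fold change 2.63, SE 0.43, adjusted p = 0.00296 by edgeR's quasi-likelihood test). Itga2b had a log2 fold change of 2.28 (SE 0.47), which was 1.47 and no longer called without Fgfr3CE-E12.5 replicate 2 (adjusted p = 0.0589 by the same edgeR test). The other laminin-binding chains did not pass the test, Itga3 at 3.59 ± 1.63 CPM (SD, n = 3) against 2.49 ± 0.321 CPM (SD, n = 2) and Itga7 at 1.98 ± 1.23 CPM against 2.05 ± 0.942 CPM. Itgb4, the beta chain of epithelial hemidesmosomes, had 9 to 32 counts in any library.

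Cadherin expression was dominated by Cdh11 and Cdh2, and neither was called. Cdh11, the cadherin typical of osteoblasts and mesenchyme, was at 1109, 1161 and 1031 CPM in Dlx5CE-E12.5 cells and at 1114 and 695 CPM in Fgfr3CE-E12.5 cells (log2 fold change -0.28, SE 0.22). Cdh2, or N-cadherin, was at 349, 505 and 447 CPM against 543 and 362 CPM (0.06, SE 0.23). For both genes the 2 Fgfr3CE-E12.5 libraries lay on either side of the middle Dlx5CE-E12.5 library, and replicate 3 was at 0.624 and 0.667 times replicate 2.

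Of the less abundant cadherins, Cdh15 and Cdh6 were called higher in Fgfr3CE-E12.5 cells and Cdh13 higher in Dlx5CE-E12.5 cells. Cdh15, or M-cadherin, known from muscle precursors, was at 4.76, 6.55 and 8.27 CPM against 17.0 and 26.2 CPM (log2 fold change 1.73, SE 0.31, adjusted p = 0.00396 by edgeR's quasi-likelihood test). Cdh6, or K-cadherin, was at 1.86, 2.26 and 3.66 CPM against 24.7 and 9.45 CPM (2.72, SE 0.48, adjusted p = 0.00355 by the same edgeR test). Cdh13, or T-cadherin, a lipid-anchored cadherin that binds adiponectin, was at 9.43, 33.5 and 38.5 CPM against 2.49 and 1.56 CPM.

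Relative to its mean, Cdh13 spread more within Dlx5CE-E12.5 cells than any other called gene of the families that passed the main filter did in that group, with replicate 1 well below the others, although every Dlx5CE-E12.5 library lay above both Fgfr3CE-E12.5 libraries. Its log2 fold change was -3.74 (SE 0.66, adjusted p = 0.00355 by edgeR's quasi-likelihood test), -4.15 without Dlx5CE-E12.5 replicate 1, and could not be fitted without Dlx5CE-E12.5 replicate 2 or 3, when the gene missed the filter. Cdh6, like the chondrocyte marker sum, was higher in Fgfr3CE-E12.5 replicate 2 than in replicate 3, at 0.383 times and 0.142 times, and the part of chondrocytes in its level was not tested.

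At the lower filter Cdh23, the cadherin of the tip links of hair cells, was at 1.08, 0.424 and 0.994 CPM against 2.83 and 2.84 CPM (log2 fold change 1.73, SE 0.55, adjusted p = 0.0385 by edgeR's quasi-likelihood test). Cdh4, or R-cadherin, was at 3.78, 1.08 and 1.79 CPM against 0.618 and 0.347 CPM (-2.23 with SE 0.73, adjusted p = 0.0434 by the same edgeR test). Both calls were near the threshold: Cdh23 kept its call without Dlx5CE-E12.5 replicate 1 and lost it without any one of the other 4 libraries (adjusted p 0.076 to 0.101 by that edgeR test), and Cdh4 kept its call only without Dlx5CE-E12.5 replicate 2 (0.0672 to 0.181 without any other). Cdh24 and Cdh1, E-cadherin, were not called. Cdh1 had 57 counts in Dlx5CE-E12.5 replicate 1, 0 in the other two and 41 and 91 in Fgfr3CE-E12.5 cells.

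The other cadherins passed neither filter. Cdh26 had 22, 7 and 32 counts in Dlx5CE-E12.5 cells and 0 in both Fgfr3CE-E12.5 libraries, at least 16.1-fold lower against a floor of 3 counts per library. Cdh17, the cadherin of intestinal epithelium, had 0 counts in Dlx5CE-E12.5 cells and 21 and 13 in Fgfr3CE-E12.5 cells, at least 2.29-fold higher. Cdh18 had 11 to 22 counts against 87 and 3, and Cdh8, Cdh10, Cdh12 and Cdh20 had at most 10 counts in any library. Those totals are amplified reads without molecular identifiers, so the floor covers counting error only.

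**Figure D3:**
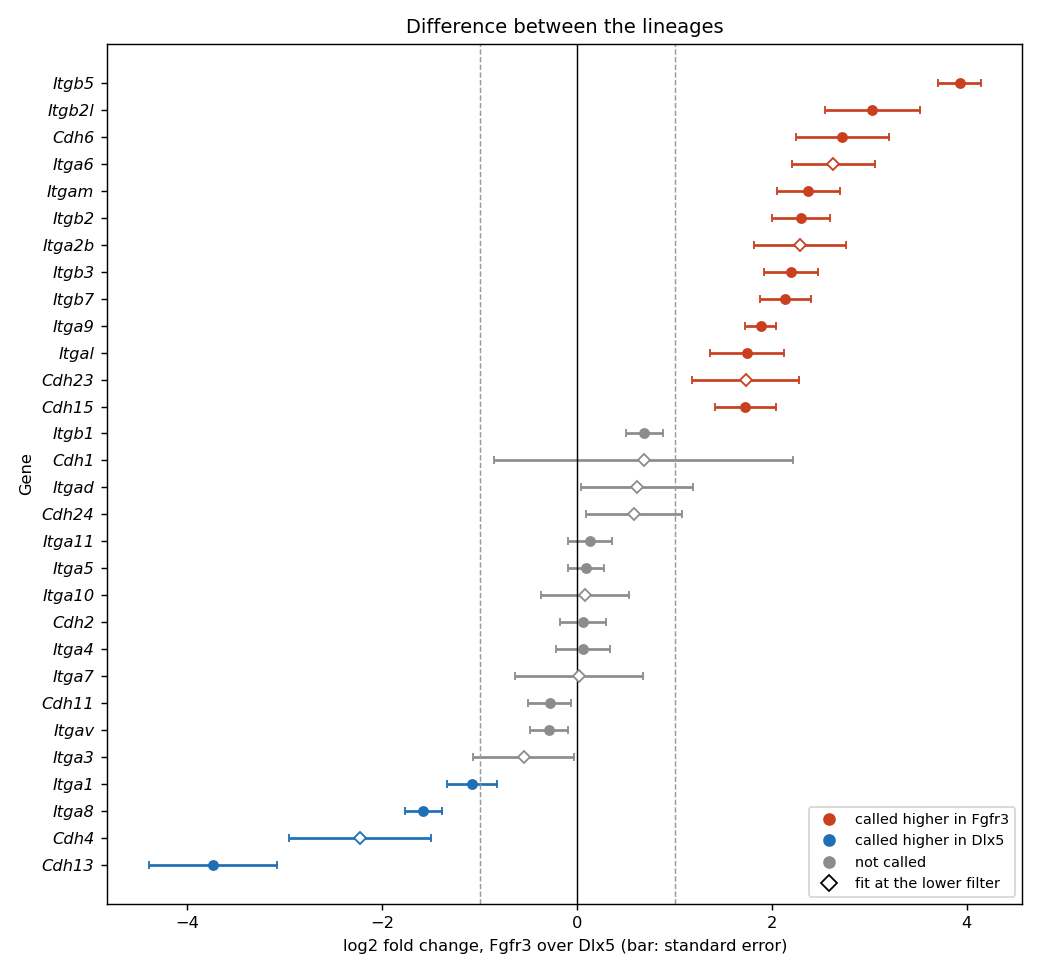
Log2 fold change of Fgfr3CE-E12.5 over Dlx5CE-E12.5 for the 30 genes that passed either filter (bars, standard error); filled circles come from the main fit and open diamonds from the fit at the lower filter, and dashed lines mark the threshold of 1. Called genes run from Itgb5 at 3.92 to Cdh13 at -3.74, and Itgb1 lies at 0.69, left of the dashed line.

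The make-up of the chains was also compared as the share each gene took of the CPM per kilobase of exon summed over its kind, a measure added after the data had been seen. With 3 libraries against 2, the exact two-sided permutation test used doubles the smaller one-sided p and could not give less than p = 0.2. Every share below had p = 0.2 in that permutation test unless another value is given. Itgb1 took 85.5%, 84.8% and 87.7% of the beta chains in Dlx5CE-E12.5 cells and 67.3% and 47.6% in Fgfr3CE-E12.5 cells, while its own CPM was higher in the latter. Itgb5 took 3.03% to 3.47% against 17.7% and 23.1%. Itgb2 took 6.08% to 7.63% against 9.24% and 18.8%. Summed over the 9 beta chains, the level per kilobase was 167 ± 19.4 CPM (SD, n = 3) in Dlx5CE-E12.5 cells and 408 ± 19.3 CPM (SD, n = 2) in Fgfr3CE-E12.5 cells.

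The 18 alpha chains summed to 98.9 ± 4.54 CPM per kilobase (SD, n = 3) and 120.5 ± 3.83 CPM per kilobase (SD, n = 2). Collagen-binding chains took 37.9% to 46.9% of the alpha chains in Dlx5CE-E12.5 cells and 30.3% and 26.4% in Fgfr3CE-E12.5 cells, and Itga9 5.601% to 5.96% against 19.5% and 15.4%. Alpha chains of leukocytes took 3.97% to 5.80% against 11.5% and 24.3%. The share of Itga11 overlapped, at 16.9% to 30.7% against 20.8% and 20.1% (exact two-sided permutation p = 0.8). Cdh11 and Cdh2 together took 95.5% to 97.5% of the cadherins in Dlx5CE-E12.5 cells and 95.2% and 91.9% in Fgfr3CE-E12.5 cells.

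**Figure D4:**
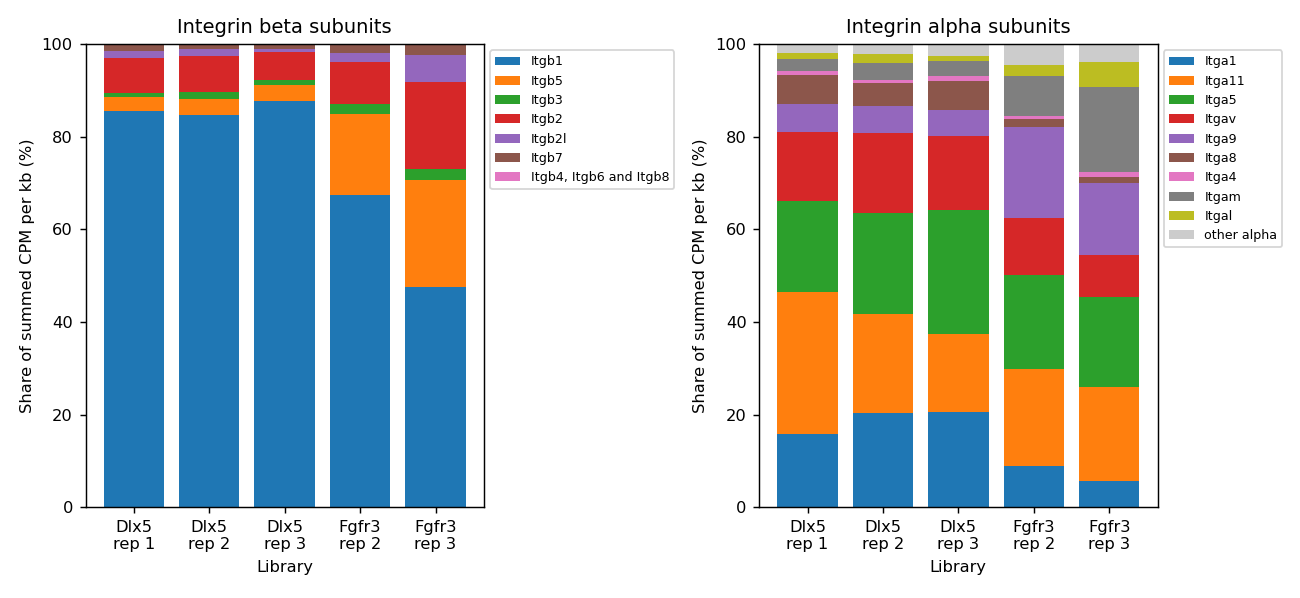
Share of each integrin chain in the CPM per kilobase of exon summed over all beta chains (left) and all alpha chains (right), one bar per library, in percent. The band of Itgb1 covers 84.8% to 87.7% of the Dlx5CE-E12.5 bars and 67.3% and 47.6% of the Fgfr3CE-E12.5 bars, where Itgb5 widens. On the right, Itga9 and Itgam widen in both Fgfr3CE-E12.5 bars. Itgb2 and Itgam are widest in Fgfr3CE-E12.5 replicate 3.

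The proteins that work with these receptors were read from the same fit, over lists written without regard to how their genes moved but with earlier results of these data known. Of 69 such genes tested, 13 were called higher in Fgfr3CE-E12.5 cells (18.8%) and 9 higher in Dlx5CE-E12.5 cells (13%), and their median log2 fold change was 0.06. These shares were near the 16.4% and 13.1% of all genes tested.

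Of the 31 tested genes of the adhesion complex inside the cell, 6 were called higher in Fgfr3CE-E12.5 cells and 3 higher in Dlx5CE-E12.5 cells. The largest were Parvg, the parvin of blood cells, at 7.88 to 17.3 CPM against 32.6 and 86.3 CPM (log2 fold change 2.31, SE 0.46), and Rap1b, a small GTPase that helps switch integrins on, at 121 to 137 CPM against 632 and 524 CPM (2.18, SE 0.15). Among the genes called higher in Dlx5CE-E12.5 cells were 2 of the 4 tensins of the list, proteins that tie integrin tails to actin. Tns1 was at 40.4 to 78.8 CPM against 11.1 and 7.61 CPM (-2.71, SE 0.34), and Tns3 at 222 to 254 CPM against 74.7 and 55.3 CPM (-1.89, SE 0.18). Tns2 was not called (-0.25, SE 0.20), and Tns4 was called higher in Fgfr3CE-E12.5 cells at the lower filter (3.99, SE 1.21). Both are named beyond the rule, after their values were seen. Tns4 reached 1 CPM only in Fgfr3CE-E12.5 libraries, so it was bound to differ. Parvg was 2.65 times higher in Fgfr3CE-E12.5 replicate 3 than in replicate 2, as the leukocyte integrins were in the same direction, and Rap1b was at 0.829 times.

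Of 12 tested cadherin partners, 2 were called in each direction. Nectin3, a cell contact protein that works beside cadherins, was higher in Fgfr3CE-E12.5 cells (log2 fold change 1.94, SE 0.22), and so was Ctnnb1, or beta-catenin, which links cadherins to alpha-catenin and also carries Wnt signals (1.43, SE 0.20). Ctnnb1 was at 129, 147 and 172 CPM against 474 and 333 CPM while Cdh2 and Cdh11 overlapped. Nectin1 was lower in Fgfr3CE-E12.5 cells (-2.61, SE 0.30), and so was Ptprm, a phosphatase that binds its like on the next cell (-1.08, SE 0.19). Nectin1 reached 10 CPM only in Dlx5CE-E12.5 libraries, so it was bound to differ.

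Of 26 tested integrin ligands, 5 were called higher in Fgfr3CE-E12.5 cells and 4 higher in Dlx5CE-E12.5 cells. Tgfb1, whose latent form integrins with Itgav bind, was at 3.86 to 5.48 CPM against 52.7 and 85.9 CPM (log2 fold change 3.91, SE 0.27). Spp1, or osteopontin, a ligand of the pairs of Itgb3, Itgb5 and Itga9, was at 714 to 1242 CPM against 5273 and 5948 CPM (2.61, SE 0.27). Vcam1, the stromal ligand of Itga4 and Itga9, was at 3874 to 4857 CPM against 1454 and 714 CPM (-2.04, SE 0.33), and Lama1, a laminin chain, at 17.7 to 35.0 CPM against 6.34 and 8.22 CPM (-1.74, SE 0.35). So ligands of the same receptor, Spp1 and Vcam1 for Itga9, were called in opposite directions. Tgfb1 reached 10 CPM only in Fgfr3CE-E12.5 libraries and Lama1 only in Dlx5CE-E12.5 libraries, so these were bound to differ.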

How the data were processed

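Reads had been mapped by the authors on mm10 (TopHat2 2.0.13, Bowtie2 2.2.1), and raw counts were deposited for each Ensembl gene and for the reporter sequences; HTSeq is named in the submitters' notes, its strand setting is not given in the sources used here, and reads of a gene and of an overlapping antisense gene cannot be told apart. The deposited depth-normalized and rlog tables were not used. Of 30046 features, 29965 were found in GENCODE M21 (GRCm38), which gave gene types, positions and exon lengths. Groups and replicate numbers came from the sample labels, and no pair of libraries agreed within sampling noise.

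Counts of protein-coding genes and reporters at 10 CPM or more in at least 2 libraries (10088 genes) entered an edgeR 4.0.16 model (R 4.3.3) with TMM, the quasi-likelihood test and Benjamini-Hochberg adjustment over all genes, and called at an adjusted p under 0.05 and a log2 fold change above 1 in size. A second fit used 1 CPM (13225 genes). Each standard error was the size of the log2 fold change divided by the root of F. Alternatives used the edgeR exact test, DESeq2 1.42.0, other scaling, filters and thresholds, trends on GC content and length, a replicate block, and one library left out. Every gene of the families at 1 CPM or more in at least 2 libraries was named, and of each partner list the 2 called genes furthest from 0 on either side. The members, the lists and the motifs were chosen with earlier results of these data known, and the shares per kilobase and the ratios to leukocyte markers were added after the values had been seen.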

Additional observations from a re-analysis of the deposited data

How the results depend on the processing

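Of the alternatives that kept every library, one moved the counts of 10 and 3 calls by more than 1.5 times: 6 genes were called higher in Fgfr3CE-E12.5 cells when 10 CPM was asked of 3 libraries. Without one library that count ranged from 5 to 10, lowest without Fgfr3CE-E12.5 replicate 3 (6 without replicate 2), where fewer genes were tested, and the count higher in Dlx5CE-E12.5 cells from 1 to 3. An arm left with 1 library was assumed to vary like the other. Partner genes numbered 21 and 14 with no fold threshold and 4 higher in Dlx5CE-E12.5 cells when a change above 2-fold was tested. At the lower filter the count of 1 in Dlx5CE-E12.5 cells, Cdh4, was 0 by library size alone, without a filter, in the test of a change above 2-fold, with the replicate block and with the length trend removed, and ranged from 0 to 1 without one library; the count of 3 in Fgfr3CE-E12.5 cells ranged from 1 to 3. The share of all genes called under these alternatives is not given here. The cause of these changes was not tested, beyond the smaller number of genes. Filters above 1 CPM do not apply to that fit. Library size alone moved the median of all genes from 0.01 to 0.22 and Itga1 to -0.87. Of 501 single-gene values, 456 kept direction and side of the threshold, 23 were weaker, 2 stronger and 20 changed sign, the last all of genes not called. With the replicate block Itga5 was -0.031, Itga4 -0.049 and Cdh2 -0.10; with the GC trend removed Itga5 was -0.071 and Itga7 -0.26; with the length trend removed Itgav was 0.11 and Itga7 -0.14. Without one library, the lowest and highest values were -0.038 and 0.23 for Itga5, -0.50 and 0.010 for Itgav, -0.24 and 0.42 for Itga4, -0.040 and 0.35 for Itga11, -0.18 and 0.39 for Cdh2, -0.59 and 0.078 for Cdh11, -0.10 and 0.29 for Itga10 and -0.52 and 0.60 for Itga7. In the test of a change above 2-fold Itga1 (adjusted p = 0.626) and Itgal (0.0847) lost their calls, by edgeR's glmTreat. The groups share the replicate numbers 2 and 3, which the labels tie to nothing; deviations of same-numbered libraries correlated at 0.124 and -0.0486 across 10088 genes, so the numbers were not taken as pairs. The block left 10 and 3 calls and called Cdh1 (8.44, adjusted p = 0.0145 by edgeR's quasi-likelihood test), which had 0 counts in 2 libraries. With 2 libraries in one group, precision was limited by their number.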
